A study of Homo sapiens with 8 samples.

Results

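Small nucleolar RNA (snoRNA) genes were taken as the genes whose symbol starts with SNORA or SNORD followed by a number and whose mean over all 8 libraries was at least 1 FPKM, a read number normalised to transcript length and library size. Of the 60332 genes in the table, 788 had such a symbol (399 SNORA and 389 SNORD), and 143 of these reached the mean and are the members described here (96 SNORA and 47 SNORD). The members were therefore chosen by their level, and their mean levels are given as a description without a test. A member that reached the mean through 1 group alone was also chosen by that group, so its test is no independent support for a difference. The 143 members carried 122 distinct symbols, because several symbols are shared by more than 1 gene, and all 143 were found in the annotation as snoRNA genes of a single exon.

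The libraries hold RNA of the lines RD-ES and SK-N-MC, both derived from Ewing sarcoma, and each line gave 2 control and 2 eKD2 libraries. The eKD2 cells expressed dCas9-KRAB, a Cas9 that does not cut DNA and is fused to a repressor domain, with a single guide RNA against the GGAA repeat enhancer of LOXHD1. The sample labels describe the controls as carrying an empty dCas9-KRAB virus, whereas the text of the study calls them parental cells. Virus was added at a multiplicity of infection of 10, puromycin (1 µg/ml) was applied for 3 days, and cells were used within 5 passages as mixed pools rather than clones. The study describes 2 biological replicates, and the p-values measure only the spread between those libraries. LOXHD1 itself was at 21.4 and 21.2 FPKM in RD-ES controls and at 1.04 and 1.02 FPKM in the RD-ES eKD2 libraries. In SK-N-MC it was at 159 and 169 FPKM in control and at 11.0 and just under 12 FPKM in eKD2. All 8 listed markers of Ewing sarcoma cells were above 0 in every library, from 2.38 FPKM for NR0B1 in an RD-ES control library to 718 FPKM for CCND1.

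SnoRNAs are short nuclear RNAs that sit with fixed sets of proteins in the nucleolus. The box C/D class (SNORD) pairs with ribosomal RNA and directs methylation of the ribose, and the box H/ACA class (SNORA) directs the change of uridine into pseudouridine, while a few members of both classes are needed to cleave the ribosomal precursor. Most human snoRNAs are cut out of introns of host genes, many of which encode ribosomal proteins, and the mature RNA carries no poly(A) tail. The libraries measured here were made from total RNA that retains small RNA, then selected for poly(A), and read from 1 end over 75 bases without strand information.

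The sequences below were chosen because the results turn on them, and all come from the GENCODE transcripts on GRCh37. SNORD34 is shown as a gene shorter than a read, SNORD100 as the member with the highest mean, SNORD88A, SNORD111, SNORA54, SNORA80 and SNORA80B as members that passed a test between eKD2 and control, and SNORA73B as a member with many reads. In SNORD genes the capitals mark the first TGATGA (box C) where it was found and the last CTGA (box D), and in SNORA genes the ACA near the 3′ end.
SNORD34: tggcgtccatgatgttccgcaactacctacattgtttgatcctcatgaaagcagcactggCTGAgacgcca
SNORD100: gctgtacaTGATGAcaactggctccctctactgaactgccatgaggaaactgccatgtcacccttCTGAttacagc
SNORD88A: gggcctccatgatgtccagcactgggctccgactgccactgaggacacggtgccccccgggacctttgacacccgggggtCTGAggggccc
SNORD111: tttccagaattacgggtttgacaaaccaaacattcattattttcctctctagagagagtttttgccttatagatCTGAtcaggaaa
SNORA54: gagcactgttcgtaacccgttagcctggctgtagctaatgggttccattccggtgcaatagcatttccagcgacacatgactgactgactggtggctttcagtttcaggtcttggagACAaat
SNORA80: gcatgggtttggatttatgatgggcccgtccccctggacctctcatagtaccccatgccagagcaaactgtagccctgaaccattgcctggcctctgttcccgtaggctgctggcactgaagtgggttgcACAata
SNORA80B: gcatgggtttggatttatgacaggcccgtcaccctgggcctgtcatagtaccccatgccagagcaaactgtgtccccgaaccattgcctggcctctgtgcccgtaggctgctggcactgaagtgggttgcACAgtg
SNORA73B: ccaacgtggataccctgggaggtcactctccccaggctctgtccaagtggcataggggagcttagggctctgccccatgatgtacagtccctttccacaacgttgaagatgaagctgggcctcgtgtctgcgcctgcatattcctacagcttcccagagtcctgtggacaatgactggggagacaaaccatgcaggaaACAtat

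Searched on the transcribed strand only, both TGATGA and CTGA occurred in 30 of the 47 SNORD members (63.8%) and in 231 of all 389 SNORD genes (59.4%). An ACA placed exactly 3 bases before the end was found in 67 of the 96 SNORA members (69.8%) and in 241 of all 399 SNORA genes (60.4%). SNORA80 and SNORA80B differ at 11 of 136 positions, spread along the gene, so 91.9% of their bases are identical. How reads were aligned between them was not tested. The gene named SNORD111 shown here (ENSG00000252230.1, chr19:35128601-35128686, minus strand) shares its symbol with another gene.

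Genes no longer than a read were nearly all listed at 0. Of the 788 genes, 197 were under 76 bases, which is no longer than a read, and 195 of those were SNORD genes. Only 2 of the 197, SNORD36A and SNORD36B, had a value other than 0 in any library, both values were far under 0.1 FPKM, and none of the 197 was a member. SNORD34 (71 bases), one of the box C/D RNAs in introns of RPL13A, was listed at 0 in all 8 libraries. The median length of SNORD genes was 75 bases over all 389 and 91 bases over the members, whereas for SNORA genes it was 132 and 134 bases. In all, 618 of the 788 genes were listed at 0 in every library, and 27 had a value above 0 somewhere but a mean under 1 FPKM.

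The FPKM that 1 read gives was recovered from the values themselves, since the low values of short genes rose in whole steps. It corresponded to about 13.1 and 16.6 M reads (M, mega) per library in RD-ES controls, 7.56 and 14.6 in RD-ES eKD2, 30.4 and 13.3 in SK-N-MC controls and 23.9 and 25.2 in SK-N-MC eKD2. For a gene of 76 bases, 1 read was worth 515 FPKM in the deepest library (SK-N-MC control 1) and 2070 FPKM in the shallowest (RD-ES eKD2 1). At 136 bases, 1 read was worth 6.51 and 26.2 FPKM in the same libraries. A value listed at 0 allows up to 3 reads, so a gene of 136 bases at 0 could have had up to 19.5 FPKM in SK-N-MC control 1 and up to 78.5 FPKM in RD-ES eKD2 1, counting error alone considered. A single read in the deepest library was enough to bring a gene of up to 130 bases to a mean of 1 FPKM, and a single read in the shallowest library a gene of up to 178 bases.

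**Figure D1:**
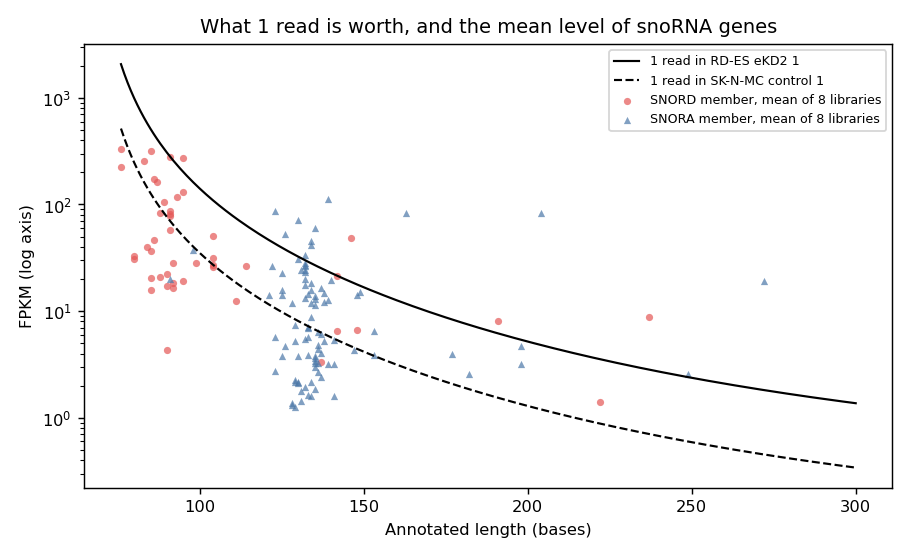
Mean FPKM over the 8 libraries (log axis) of the members of up to 300 bases against their annotated length, with SNORD genes as circles and SNORA genes as triangles. The lines give the FPKM of 1 read in the shallowest library (RD-ES eKD2 1, solid) and the deepest (SK-N-MC control 1, dashed), which at 76 bases are 2070 and 515 FPKM, and most members lie under the solid line.

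Divided by the FPKM of 1 read in the same library, the values became read equivalents, and most were very small. Of the 616 member values above 0, 366 (59.4%) were whole numbers of reads within 0.02, 198 of them equal to 1 read. Values of at most 3 read equivalents made up 81.5% of the 616, and 29 values were above 10. Summed over the 8 libraries, the median member had 5 read equivalents, 55 members had at most 3, 108 had at most 10, and 24 members consisted of 1 read. All members together had 1765 read equivalents.

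Overlap with other genes moved with the values that were not whole. In 80 of the 82 members with no exon of another gene over them, every value above 0 was whole (97.6%). The same held for 19 of the 61 members that an exon of another gene overlaps (31.1%). A host gene on the same strand was found for 135 members (98 hosts), and 51 members lay inside an exon on the same strand, where without further information a read of the host transcript and of the snoRNA cannot be told apart. The median total was 4 read equivalents for members without such an exon and 7.32 for members with one, and the part of the overlap in this difference was not tested.

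**Figure D2:**
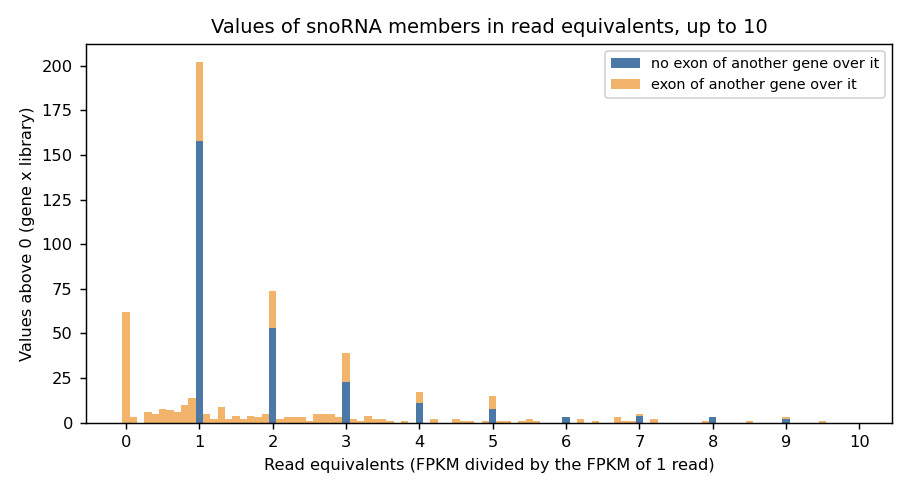
Number of member values above 0 (gene by library, values up to 10) in bins of 0.1 read equivalents, split by whether an exon of another gene overlaps the member. The values of members without such an exon stand at whole numbers, the highest bar at 1, and nearly all fractions belong to members with one.

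The members with the highest FPKM were short genes with few reads. SNORD100, a box C/D RNA in an intron of RPS12 (chr6:133137941-133138016, 76 bases), had the highest mean at 331 FPKM, from values of 1195 and 940 in RD-ES controls, 0 and 0 in RD-ES eKD2, 515 and 0 in SK-N-MC controls and 0 and 0 in SK-N-MC eKD2. Each of its 3 values above 0 was 1 read. SNORD117, also of 76 bases and inside DDX39B, was at 515 FPKM in SK-N-MC control 1 and at 656 and 621 FPKM in SK-N-MC eKD2, again 1 read each, and was listed at 0 in the other 5 libraries. Neither gene could be ranked against longer ones on so few reads. The other members among the 10 highest means were SNORD33, SNORD12B, SNORD21, SNORD60, SNORD127, SNORD35B, SNORD83A and SNORD83B, all SNORD genes of 83 to 95 bases, with means of 119 to 317 FPKM and totals of 7.32 to 25.4 read equivalents. Across the 143 members, Spearman's rho was -0.50 between length and mean FPKM and 0.40 between length and total read equivalents, as a description over genes that share the same libraries. The median mean was 31.0 FPKM for SNORD members and 6.46 FPKM for SNORA members, whereas the median total was 5 read equivalents in both classes.

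At the lower limit the members just inside and just outside differed by little. SNORA35 (129 bases, mean 1.26 FPKM) and SNORA11 (128 bases, 1.31 FPKM) were just inside, each with 1 read in SK-N-MC eKD2 2. SNORA2B (137 bases, mean 0.947 FPKM) was just outside with 1 read in the same library, and SNORA68 (133 bases, 0.924 FPKM) with 0.848 read equivalents there.

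Nearly as many member values were 0 as not. Of the 1144 values (143 members in 8 libraries), 528 were listed at 0 (46.2%), with 64 and 62 members at 0 in RD-ES controls, 80 and 72 in RD-ES eKD2, 55 and 69 in SK-N-MC controls and 63 and 63 in SK-N-MC eKD2. The shallowest library, RD-ES eKD2 1, held the most zeros and the deepest, SK-N-MC control 1, the fewest. A further 59 values lay between 0 and 0.1 FPKM. Only 24 members were above 0 in all 8 libraries, another 24 were above 0 in 1 library, and 21 in 2. Values under 0.1 FPKM count as above 0 in these numbers. Some of the first 24, such as SNORA27, SNORA52 and SNORA62, had such values and were not detected everywhere. The share of zeros was 44.5% in SNORA and 49.5% in SNORD members.

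Replicates often disagreed on whether a snoRNA was present. The 143 members in 4 groups give 572 pairs of replicates. In 169 pairs both values were 0, in 190 (33.2%) 1 was 0 and the other was not, and in 213 both were above 0. In those 213 the median ratio of the larger to the smaller value was 2.11. Here too, values under 0.1 FPKM count as above 0. The median over members of the SD between replicates was 1.92 on the log2(FPKM + 1) scale. It was 1.93 in 480 other genes under 200 bases, 1.56 in 16 SCARNA genes (relatives of snoRNAs in Cajal bodies) and 0.138 in 14375 genes of at least 200 bases, where 0.981% of pairs had a single 0. The spread of snoRNA members was thus close to that of other short genes and far above that of longer ones.

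**Figure D3:**
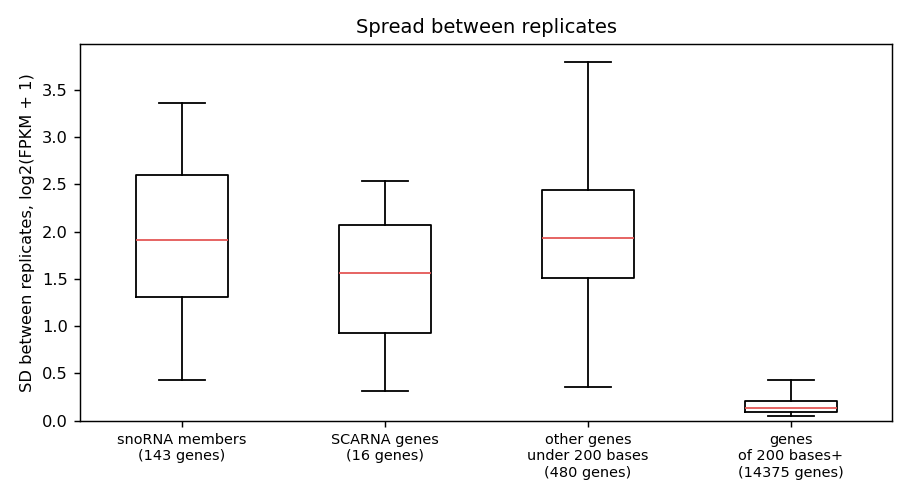
SD between replicates of log2(FPKM + 1), pooled over the 4 groups, for genes that reach a mean of 1 FPKM. Red lines are medians (1.92, 1.56, 1.93 and 0.138 from left to right), boxes the 25th to 75th and whiskers the 5th to 95th percentile of genes, and the box of long genes lies under the other boxes.

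The 5 members with the widest gap within a group were SNORD35B, SNORD100, SNORD117, SNORD12B and SNORD60. SNORD35B stood at 693 FPKM in RD-ES control 1 and under 0.1 FPKM in RD-ES control 2, which was 2.92 read equivalents against none. SNORD12B, in the ZFAS1 transcript, had 162 and 891 FPKM in RD-ES controls, 0 and 290 in RD-ES eKD2, 140 and 318 in SK-N-MC controls and 0 and 420 in SK-N-MC eKD2. Those values are 1, 7, 0, 2, 2, 2, 0 and 5 reads, so that in each line 1 eKD2 library had none and the other lay between or above the controls. SNORD60, in SNHG19, was at 0 in SK-N-MC control 1 and at 370 FPKM, 1 read, in SK-N-MC control 2.

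eKD2 and control cells were compared to ask whether loss of LOXHD1 enhancer activity was accompanied by a change of snoRNA levels. In RD-ES, 4 of the 143 members passed an adjusted p of 0.05 (limma on log2(FPKM + 1), Benjamini-Hochberg adjustment over 15175 genes), against 0.343% of all genes tested. SNORA80, SNORA80B and SNORA74 were lower in eKD2 (0.0791% of all genes were called lower), and SNORD45A was higher (0.264% of all genes). In SK-N-MC, 6 members passed, against 0.323% of all genes, with SNORA54, SNORD88A, SNORD111 and SNORA50 lower in eKD2 (0.171% of all genes) and SNORA80B and SNORA7A higher (0.152%). Each of these 10 calls rested on at most 5 read equivalents over all 8 libraries, and none of the 37 members with at least 10 read equivalents passed in either line. A pair of zeros counts as no spread in the shared fit, which lowers the SE of genes at 0 in most groups. Their small SE and p therefore do not measure how well 1 or 2 reads repeat. When genes under 200 bases were given their own estimate of spread, 0 members passed for RD-ES and 0 for SK-N-MC by limma, where 14 and 16 members had an unadjusted p under 0.05 in the common fit (12.3% and 13% of all genes did so). Leaving out a library raised the RD-ES count to 9 (control replicate 1), 8 (eKD2 replicate 1) and 7 (eKD2 replicate 2). The SK-N-MC count rose to 10 without its control replicate 1, to 10 or 11 without its eKD2 replicate 1 or 2, and fell to 3 without either RD-ES control library.

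SNORA80, an H/ACA RNA in an intron of URB1 (chr21:33749496-33749631), was at 15.1 and 23.8 FPKM in RD-ES controls, 1 and 2 reads, and at 0 in both RD-ES eKD2 and all 4 SK-N-MC libraries. The log2 difference in RD-ES was -4.32 (SE, standard error, of 0.242, limma adjusted p = 0.0023, range over the alternatives 6.4e-04 to 0.19), a size that depends on the pseudocount of 1 and bounds nothing. SNORA74, in SNHG4 (chr5:138611869-138612009), was at 12.8 and 30.1 FPKM in RD-ES controls, 1 and 3 reads, and at 0 elsewhere. Its log2 difference in RD-ES was -4.37 (SE 0.375, limma adjusted p = 0.012, range 5.1e-04 to 0.41), and it passed under 9 of 19 alternatives. For both genes the RD-ES groups did not overlap, but the control values lay under the 40.6 FPKM (SNORA80) and 34.3 FPKM (SNORA74) that 3 reads would give in the deeper eKD2 library. Both reached the mean of 1 FPKM through the RD-ES controls alone, so the choice of members favoured a lower eKD2 value. Their p-values are no independent support for a change.

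SNORA80B passed in both lines in opposite directions. This gene lies in an intron of ODC1 (chr2:10586840-10586975) and shares 91.9% of its bases with SNORA80 in the sequences above. It was at 15.1 and 11.9 FPKM in RD-ES controls and 0 in both RD-ES eKD2 libraries, and at 0 in both SK-N-MC control libraries and 16.6 and 7.84 FPKM in the SK-N-MC eKD2 libraries. These values are 1, 1, 0, 0, 0, 0, 2 and 1 reads. SNORA80B reached the mean of 1 FPKM through RD-ES controls and SK-N-MC eKD2 alone, the higher group of each line. Its p-values are therefore no independent support for a change in either line. The log2 difference was -3.85 in RD-ES (SE 0.321, limma adjusted p = 0.011, range 0.0026 to 0.24) and 3.64 in SK-N-MC (SE 0.321, limma adjusted p = 0.018, range 0.0019 to 0.24), and each passed under 10 of 19 alternatives.

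SNORD45A, a box C/D RNA overlapped by an exon of RABGGTB (chr1:76253574-76253657), was under 0.1 FPKM in RD-ES controls and at 48.4 and 270 FPKM in the RD-ES eKD2 libraries. Its 84 bases make these values 0.084 and 0.907 read equivalents, so the gene passed on less than 1 read in all. SNORD45A reached the mean of 1 FPKM through those eKD2 libraries alone. The log2 difference was 6.86 (SE 0.717, limma adjusted p = 0.030, range 3.3e-04 to 0.50), and with the replicate number as a block the adjusted p was 0.069. SNORA7A, overlapped by an exon of RPL32 (chr3:12881811-12881949), was under 0.1 FPKM in SK-N-MC controls and at 18.4 and 7.36 FPKM in SK-N-MC eKD2, 2.46 and 1.04 read equivalents. It too reached the mean of 1 FPKM through its higher group alone. Its log2 difference was 3.67 (SE 0.392, limma adjusted p = 0.034, range 3.2e-04 to 0.25), and it passed under 7 of 18 alternatives, with an adjusted p of 0.067 under the replicate block.

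The 4 members lower in SK-N-MC eKD2 were at 0 in every library except the SK-N-MC controls. They reached the mean of 1 FPKM through those controls alone, so the choice of members favoured a lower eKD2 value. Their p-values are therefore no independent support for a change. SNORD88A, in the transcript C19orf48P (chr19:51302699-51302789), was at 140 and 318 FPKM in those controls, 2 reads in each. Its log2 difference was -7.73 (SE 0.358, limma adjusted p = 0.0015, range 2.6e-04 to 0.15). SNORD111 was at 114 and 260 FPKM, 1 read in each, within SCGB2B2, a host at a mean of 0.345 FPKM. Its log2 difference was -7.44 (SE 0.358, limma adjusted p = 0.0016, range 2.6e-04 to 0.16). SNORA54, in an intron of NAP1L4 (chr11:2985001-2985123), was at 21.3 and 24.3 FPKM, 2 reads and 1 read, with a log2 difference of -4.57 (SE 0.167, limma adjusted p = 4.2e-04, range 3.9e-05 to 0.17). SNORA50, in CNOT1 (chr16:58593700-58593835), was at 6.51 and 14.8 FPKM, 1 read in each, with a log2 difference of -3.45 (SE 0.359, limma adjusted p = 0.032, range 0.0013 to 0.25), and passed under 7 of 18 alternatives. In FPKM the second control library was the higher for all 4 genes, while in reads it was equal or lower, because 1 read was worth more in that shallower library.

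**Figure D4:**
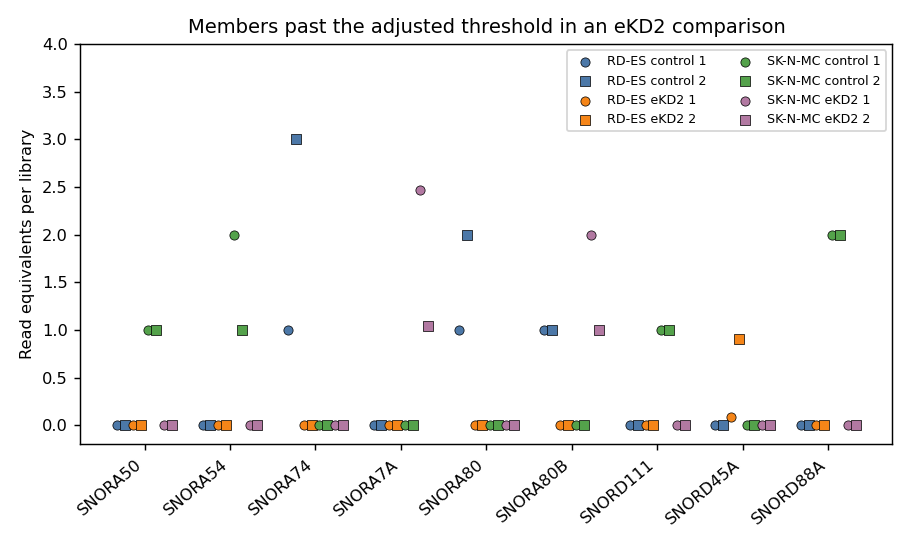
Read equivalents in each library of the 9 genes that passed the adjusted threshold between eKD2 and control in RD-ES or SK-N-MC, with colours for the groups, circles for replicate 1 and squares for replicate 2. No point lies above 3 read equivalents, and SNORA80B is above 0 in RD-ES controls and in SK-N-MC eKD2.

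Of the 10 calls, 8 had both values of the higher group under what 3 reads would give in both libraries of the lower group. The exceptions were SNORD88A, with 318 FPKM in SK-N-MC control 2 against 252 and 267 FPKM, and SNORA7A, with 18.4 FPKM against 17.6 FPKM in SK-N-MC control 1. At this depth a fall to 0 and a fall to a few reads could not be distinguished.

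Counts of members whose groups do not overlap were lower than in all genes. In RD-ES, both eKD2 values lay above both control values in 8 members (24.2% of all genes) and below them in 18 (15.1%), together 26 of 143 (18.2%) against 39.3% of all genes tested. The SK-N-MC numbers were 14 above (22.2% of all genes) and 20 below (25.1%), 34 in all (23.8%) against 47.3%. Members with all 4 libraries at 0 in a line, 22 for RD-ES and 18 for SK-N-MC, cannot separate. Of the 26 members in RD-ES, 12 were above 0 in both controls and at 0 in both eKD2 libraries, where RD-ES eKD2 1 was the shallowest library. The opposite kind had 0 members in RD-ES. Of the 34 in SK-N-MC, 9 were of the first kind and 4 of the opposite kind. Some of the first kind, such as SNORA80 and SNORD88A, reached the mean through the controls of that line alone. No share of all genes was taken for either kind, so the counts are a description only. The median log2 change of the members was 0 in both lines, against 0.03 for RD-ES and -0.0049 for SK-N-MC over all genes, as many members had zeros on both sides.

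In 7 members the groups did not overlap in both lines. The direction was the same in 2 (SNORA62 and SNORA81), against 9.65% of all genes, and opposite in 5 (SNORA20, SNORA45, SNORA80B, SNORD3A and SNORD60), against 10.2%. SNORA81 was at 0 and 3.79 FPKM in RD-ES controls and 8.34 and 4.31 FPKM in RD-ES eKD2, and at 0 in both SK-N-MC controls and 7.93 and 7.50 FPKM in the SK-N-MC eKD2 libraries, which is 9 reads in all. SNORA62, inside an RPSA exon, was at 3.67 and under 0.1 FPKM in RD-ES controls, 11.5 and 7.44 FPKM in RD-ES eKD2, under 0.1 FPKM in both SK-N-MC controls and 2.52 and 5.88 FPKM in the SK-N-MC eKD2 libraries. Neither passed the adjusted threshold in either line. Another member with the symbol SNORA81 (ENSG00000253092.1, 15 reads in all) had overlapping groups in both lines. The difference between the lines in the eKD2 change passed for 5 members (SNORA54, SNORA80, SNORA80B, SNORD88A and SNORD111) against 0.244% of all genes. The difference was positive in 2 of them (0.105% of all genes) and negative in 3 (0.138%). Each rested on at most 5 read equivalents, and 0 members passed when short genes had their own spread, where 22 members had an unadjusted p under 0.05 in the common fit (13.5% of all genes did so).

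The snoRNA genes with the most reads give the firmest values. SNORA73B (the RNA also called U17, needed for cleavage of the ribosomal precursor; in SNHG3, chr1:28835071-28835274, 204 bases) had 269 reads in all. It was at 117 and 131 FPKM in RD-ES controls, 125 and 110 in RD-ES eKD2, 15.6 and 95.6 in SK-N-MC controls and 24.4 and 47.6 in SK-N-MC eKD2. As reads these were 42, 60, 26, 44, 13, 35, 16 and 33. The 4 RD-ES libraries were close together and above the 4 SK-N-MC libraries, whereas the SK-N-MC controls lay far apart and enclosed both eKD2 values. The log2 change was -0.08 for RD-ES and -0.19 for SK-N-MC (SE 0.783 for both, limma adjusted p = 1.00 and 0.97).

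SNORD17, a box C/D RNA inside SNX5 with 52 reads, was at 11.4 and 6.42 FPKM in RD-ES controls, 11.3 and 5.85 in RD-ES eKD2, 6.34 and 19.3 in SK-N-MC controls and 6.27 and 3.39 in SK-N-MC eKD2. SNORD15B, inside RPS3 with 41 reads, was at 87.2 and 34.3, 56.6 and 48.8, 9.40 and 85.7, and 29.9 and 34.0 FPKM in the same order of groups. In both lines the SNORD15B controls enclosed both eKD2 values. SNORA33, an H/ACA RNA in RPS12 beside SNORD100, had 36 reads and was at 56.3 and 118 FPKM in RD-ES controls, 162 and 84.0 in RD-ES eKD2, 32.3 and 18.4 in SK-N-MC controls and 41.2 and 58.4 in SK-N-MC eKD2. Its SK-N-MC eKD2 values lay above both controls, with a log2 change of 0.98 (SE 0.488, limma adjusted p = 0.47), and its RD-ES groups overlapped. SNORA71A in SNHG17, SNORA72 in RPL30 and SNORA53 in SLC25A3, with 28, 22 and 20 reads, had log2 changes between -0.77 and 0.49 in the 2 lines, none past the threshold.

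**Figure D5:**
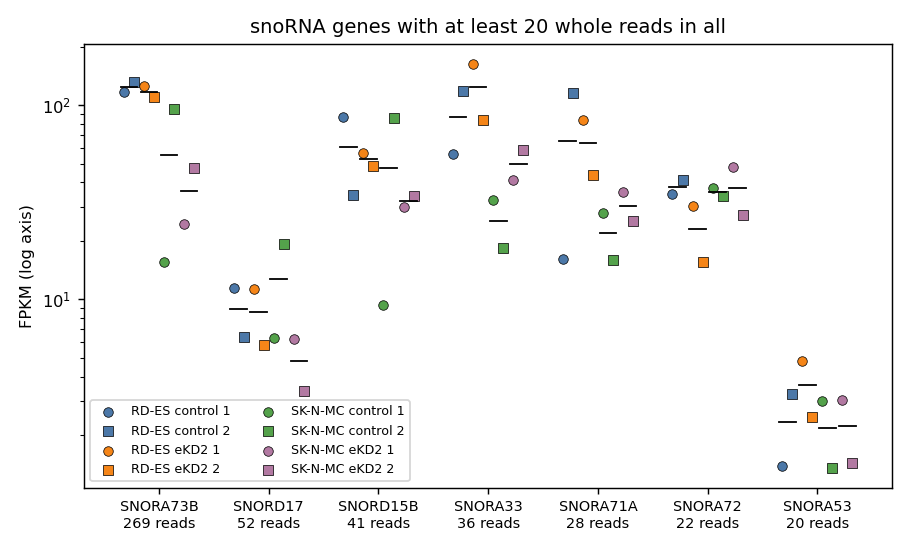
FPKM (log axis) in each library of the 7 members of 20 or more reads whose values were all whole, SNORD3A left out, with circles and squares for replicates 1 and 2 and bars for the mean of each group. Control and eKD2 points of RD-ES overlap in most genes, and SK-N-MC control replicates of SNORA73B (15.6 and 95.6 FPKM) and SNORD15B (9.40 and 85.7 FPKM) lie far apart.

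Other members with many read equivalents had values that were not all whole, so their read numbers are estimates. SNORA73 (ENSG00000252531.1), overlapped by an exon of RPS7, had 130 read equivalents and was at 132 and 147 FPKM in RD-ES controls, 78.8 and 96.4 in RD-ES eKD2, 58.9 and 33.3 in SK-N-MC controls and 75.6 and 49.6 in SK-N-MC eKD2. It had the smallest spread between replicates of any member above 0 in all 8 libraries (SD 0.373 on the log2 scale). Its RD-ES eKD2 values lay below both controls, with a log2 change of -0.67 (SE 0.308, limma adjusted p = 0.45). SNORA8, overlapped by a TAF1D exon, had 90.0 read equivalents and ranged from 30.0 to 202 FPKM, and SNORA71B in SNHG17 had 169 and ranged from 9.51 to 37.3 FPKM. SNORD91A, inside TSR1, had 32.6 of its 36.6 read equivalents in SK-N-MC control 1 alone.

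The snoRNAs with a role in processing of the ribosomal precursor were covered unevenly. Of the U3 genes, SNORD3A was the only member. It was at 2.22 and 3.49 FPKM in RD-ES controls, 7.68 and 3.97 in RD-ES eKD2, 6.70 and 19.6 in SK-N-MC controls and 4.87 and 2.30 in SK-N-MC eKD2. Its values were whole multiples, within 0.02, of a common step (1, 2, 2, 2, 7, 9, 4 and 2), although not of the read value at its annotated 699 bases, and the step was counted as 1 read. The log2 change was 0.79 for RD-ES and -1.52 for SK-N-MC (SE 0.551 for both, limma adjusted p = 0.60 and 0.34). SNORD3B-1, with a mean of 0.191 FPKM, SNORD3B-2 and SNORD3C stayed under the limit. SNORD13 (U13) had 63.4 and 0 FPKM in RD-ES controls, 27.3 and 311 in SK-N-MC controls, and 0 in all 4 eKD2 libraries, which is 1, 0, 1 and 5 reads. Of the U14 genes, SNORD14A had 5 reads, 1 in RD-ES controls, 2 in RD-ES eKD2 and 2 in SK-N-MC eKD2, SNORD14E had 1 read, and SNORD14B had 0.113 read equivalents, all in RD-ES eKD2 1. SNORD118 (U8) had a mean of 0.706 FPKM and was no member, and SNORD22 and both SNORD14C and SNORD14D were listed at 0 throughout. SNORD3D and SNORA73A were not matched by symbol and are not analysed here.

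Among the RPL13A box C/D RNAs, a class that directs methylation of ribosomal RNA, SNORD33 was the only member. It lies under an exon of RPL13A (chr19:49993872-49993956) and was above 0 in all 8 libraries, at 236 and 182 FPKM in RD-ES controls, 960 and 214 in RD-ES eKD2, 228 and 291 in SK-N-MC controls and 139 and 289 in SK-N-MC eKD2. The high value in RD-ES eKD2 1 was 1.87 read equivalents, and the others ranged from 0.781 to 1.88. SNORD32A and SNORD35A had no value above 0.1 FPKM. Of the imprinted clusters, all 15 SNORD113, 30 SNORD114 and 46 SNORD115 genes were listed at 0 in every library, as were 618 of all 788 genes. Of these cluster genes, 10 SNORD113, 28 SNORD114 and 1 SNORD115 were under 76 bases, so their zeros do not show absence. Of the 28 SNORD116 genes, 5 were members, with 8 reads in all, 2 of their values above 0 for RD-ES and 5 for SK-N-MC libraries.

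The control cells of the 2 lines were compared as a reference for the size of differences. SK-N-MC and RD-ES controls differed in 21 of 143 members (limma adjusted p under 0.05), against 57.8% of all genes. Of these, 7 were higher in SK-N-MC (31.4% of all genes) and 14 lower (26.4%), and 13 of the 21 had at most 5 read equivalents. SNORA54, SNORD88A, SNORD111, SNORA50, SNORA80 and SNORA74, among the 21, became members through the controls of 1 line alone. Their calls are no independent support for a difference between the lines. Groups did not overlap in 38 members (26.6%, against 79.8% of all genes), 13 of them higher in SK-N-MC (43.1%) and 25 lower (36.7%). With 10 or more read equivalents, 6 of 37 members passed: SNORA73, SNORA33, SNORA20, SNORA45 and SNORD97 were lower in SK-N-MC and SNORD3A was higher. SNORA73 differed by -1.63 (SE 0.308, limma adjusted p = 0.0050), SNORA33 by -1.70 (SE 0.488, limma adjusted p = 0.025) and SNORA20, in TCP1, by -1.65 (SE 0.440, limma adjusted p = 0.019), all on the log2 scale. With a spread of their own for short genes, their adjusted p became 0.13, 0.16 and 0.21 in limma. SNORD3A differed by 1.73 (SE 0.551, limma adjusted p = 0.036, 0.059 with the replicate block) and passed under 8 of 19 alternatives. SNORA57 was also lower in every SK-N-MC control library than in RD-ES controls, at 21.7 and 31.1 FPKM in RD-ES against under 0.1 and 12.7 FPKM in SK-N-MC, and did not pass (limma adjusted p = 0.30).

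The hosts were measured far more deeply than the RNAs they carry. The mean of the host was 179 FPKM at the median, up to 4978 FPKM for RPS3, and over 134 members Spearman's rho between host level and total read equivalents was 0.25, as a description. Of 94 hosts tested, 1 passed for RD-ES and 3 for SK-N-MC (0.343% and 0.323% of all genes did so). HSPA8, a chaperone gene that carries SNORD14E, fell in RD-ES from 2897 and 2895 to 1822 and 1938 FPKM (log2 change -0.62, SE 0.0660, limma adjusted p = 0.030) and rose in SK-N-MC from 716 and 647 to 1294 and 1384 FPKM (log2 change 0.97, SE 0.0660, limma adjusted p = 0.0065). SNORD14E had 1 read, in SK-N-MC control 2. ZFAS1, the host of SNORD12, SNORD12B and SNORD12C, rose in SK-N-MC from 383 and 392 to 526 and 526 FPKM (log2 change 0.44, SE 0.0451, limma adjusted p = 0.032), whereas SNORD12B had 2 and 2 reads in control and 0 and 5 in eKD2. EIF5, a translation factor gene that carries SNORA28, fell in SK-N-MC by 0.51 on the log2 scale (SE 0.0577, limma adjusted p = 0.040).

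The genes for snoRNA particle proteins, assembly factors and processing enzymes, a list of 35, were all measured, and their spread was that of long genes. None of the 35 passed limma's adjusted threshold between eKD2 and control in RD-ES or SK-N-MC (0.343% and 0.323% of all genes did so). An unadjusted limma p under 0.05 was reached by 2 and 9 (12.3% and 13% of all genes). In SK-N-MC, 8 of those 9 were lower in eKD2 and 27 of the 35 had a negative log2 change (median -0.11 over the list, -0.0049 over all genes), and in RD-ES 16 of the 35 did (median 0.02, against 0.03). No share of all genes by direction was taken for these counts, so they are a description only. FBL, the methyltransferase of box C/D particles, was at 421 ± 5.77 FPKM in RD-ES controls and 409 ± 37.3 in its eKD2 cells, against 576 ± 12.1 for SK-N-MC controls and 638 ± 9.27 for SK-N-MC eKD2 (each with SD, n = 2). NOP56, a core protein of the same particle, was at 660 ± 7.79 and 605 ± 9.78 FPKM in RD-ES controls and eKD2 and at 426 ± 17 and 374 ± 4.09 FPKM for SK-N-MC (SD, n = 2 each), with limma adjusted p-values of 0.39 and 0.22. DKC1, the pseudouridine synthase of H/ACA particles, was at 239 ± 3.53 and 219 ± 11.6 FPKM in RD-ES and at 158 ± 16.7 and 144 ± 8.25 FPKM for SK-N-MC (SD, n = 2 each). Its limma adjusted p was 0.60 for RD-ES and 0.61 for SK-N-MC. NOP58, the partner of NOP56, was at 194 ± 8.72 and 201 ± 25 FPKM in RD-ES and at 273 ± 5.34 and 237 ± 24.2 FPKM for SK-N-MC (SD, n = 2 each). Between the control cells 23 of the 35 genes differed, against 57.8% of all genes, 9 higher (31.4% of all genes) and 14 lower (26.4%) in SK-N-MC. All 4 proteins particular to H/ACA particles were among the lower ones (DKC1, NHP2, NOP10 and GAR1, log2 differences from -0.85 to -0.60). Of the box C/D particle proteins, NOP56 (-0.63) and SNU13 (-0.37) were lower as well, while FBL (0.45) and NOP58 (0.49) were higher.

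Summed over the members, the order of control and eKD2 libraries depended on the unit. The sum of FPKM was 6465 and 6209 in RD-ES controls, 4857 and 3823 in RD-ES eKD2, 4601 and 4496 in SK-N-MC controls and 4362 and 4611 in SK-N-MC eKD2. The RD-ES groups did not overlap in this sum, nor without SNORD100, which left 5270 and 5269 FPKM in RD-ES controls and did not alter the eKD2 sums. In read equivalents brought to the depth of the first library the sums were 202 and 227 in RD-ES controls, 259 and 168 in RD-ES eKD2, 131 and 182 in SK-N-MC controls and 124 and 115 in SK-N-MC eKD2, so that the eKD2 values enclosed the controls in RD-ES and lay below both controls in SK-N-MC, where the FPKM sums of eKD2 enclosed those of control. In bulk RNA a lower level per cell and fewer cells that hold the RNA cannot be told apart.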

How the data were processed

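The authors selected poly(A) RNA, aligned reads to GRCh37 (hg19 per the labels) with STAR and deposited FPKM values made with cufflinks and cuffnorm, 1 column per library. Read numbers were not used here. FPKM are relative to transcript length and to library size, and cufflinks divides by an effective length, so values of genes near the read length are very large per read. Lengths, positions, hosts and sequences came from GENCODE release 44 on GRCh37, which can differ from the annotation behind the values. The read value was computed with a fragment length of mean 200 and SD 80 bases and a shortest fragment of 68 bases, chosen because it gave the most whole values, and library factors came from the steps of short genes. A value was called whole within 0.02 reads. The read equivalents of values that are not whole, and the depths, are estimates, and intervals and floors cover counting error only.

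The 15175 genes whose mean reached 1 FPKM were tested with limma 3.58.1 in R 4.3.3 (lmFit and eBayes with trend, log2(FPKM + 1), 4 groups in 1 fit, Benjamini-Hochberg, threshold 0.05). Such fold changes understate the change of genes at low FPKM. In short genes, where 1 read is worth many FPKM, 1 read against 0 gives a large log2 difference instead (-7.44 for SNORD111 in SK-N-MC). With 2 libraries a side, the smallest two-sided p of an exact permutation test is 0.333, so no such test is given. The fit was tested on simulated data with normal noise on the log2 scale and no changed gene under 200 bases. That simulation therefore does not test the fit for short genes with values of few reads. Replicate numbers did not pair the libraries (correlations of replicate differences -0.021 to 0.064). Members and gene lists were chosen with earlier results of these data known. Named genes are the 10 members with the highest means, members past the threshold in an eKD2 comparison, the 10 smallest replicate SDs among members above 0 in all 8 libraries, the 5 widest replicate gaps within a group, a list of roles, 2 genes on either side of the limit, up to 3 line differences each way, and snoRNA particle genes. The 7 members separated in both lines, the called hosts and SNORD91A were picked after their values were seen, as were SNORA8 and the other members with the most reads. Alternatives were other pseudocounts, scalings, filters, variance models, a replicate block, single libraries left out and, chosen after seeing the data, members with at least 10 read equivalents.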

Additional observations from a re-analysis of the deposited data

Results flagged for a closer look

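The change between eKD2 and control differed between the lines, by an interaction term in limma, for 5 members, all on at most 5 read equivalents. The log2 difference (change in SK-N-MC minus change in RD-ES) was -4.57 for SNORA54 (limma adjusted p = 0.0017), 7.49 for SNORA80B (0.0031), -7.73 for SNORD88A (0.0046), -7.44 for SNORD111 (0.0052) and 4.32 for SNORA80 (0.011). With a spread of their own for short genes, the limma adjusted p became 0.26, 0.16, 0.16, 0.17 and 0.28 in that order. In SNORA54, SNORD88A and SNORD111 every library but the SK-N-MC controls was at 0, and in SNORA80 every library but the RD-ES controls was. These genes became members through those controls alone. Their interaction term has the size of the eKD2 difference in that line and of the difference between the controls. It is therefore the same result given again. SNORA80B became a member through RD-ES controls and SK-N-MC eKD2 alone, the groups where it was higher. Its interaction p is therefore no independent support either. With 2 libraries a group, no group could be searched for a library far from the others.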

How the results depend on the processing

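Counts of members past the adjusted threshold are given as RD-ES, SK-N-MC, between lines and difference between lines (4, 6, 21 and 5 as reported). A pseudocount of 10 gave 1, 3, 17 and 2, a pseudocount of 0.1 gave 3 for the last, a mean of at least 5 FPKM gave 2 for the first and 3 for the last, each line fitted alone gave 1 for the first and 4 for the second and ended 9 of the 10 eKD2 calls, all but that of SNORA54, and a spread of their own for short genes gave 0, 0, 15 and 0 (limma). Members of at least 10 read equivalents, chosen after seeing the data, gave 0, 0, 6 and 0. Leaving out 1 library gave 5 to 9, 3 to 11, 18 to 21 and 8 to 14. The replicate block gave 3, 4, 21 and 5 and ended the calls of SNORD45A, SNORA50 and SNORA7A in the eKD2 comparisons. Scaling, no trend and robust fits left all 10 calls in place. Over all 187 values of the named members under alternatives, 119 stayed past the threshold and 68 did not, none with another sign. The interaction could not be fitted with each line alone. Members whose groups do not overlap (26, 34 and 38 for RD-ES, SK-N-MC and the controls) became 14, 16 and 21 with a 2-fold gap, 7, 8 and 9 of the 24 members above 0 in all 8 libraries, and 8, 12 and 16 of the 37 with at least 10 read equivalents. The share of zeros (46.2%) was 51.3% under 0.1 FPKM, 37.4% at a mean of at least 5 FPKM, 89.2% over all 788 genes and 44.8% to 47.3% without 1 library. The replicate SD (1.92) was 3.46 with a pseudocount of 0.1, 0.769 with 10, 0.955 in members above 0 in all libraries, and 0.439, 0.639, 0.739 and 0.662 in RD-ES control, RD-ES eKD2, SK-N-MC control and SK-N-MC eKD2 taken alone, where pairs of zeros count as no spread. No alternative changed the 0 of 35 particle genes. Depth limits all of these, since 81.5% of the member values above 0 are at most 3 read equivalents.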
